A study of Mus musculus with 8 samples.

Results

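The small nuclear, small nucleolar and host non-coding RNAs form a family of structural and nuclear RNAs that were measured by 31 of the 55681 probes on the array. These probes stand for 28 of the 20660 genes with a name. They were chosen by gene symbol, through the RefSeq accession of the probe: symbols starting with Rnu, Snora, Snord, Scarna, Rn7s, Snhg or Mir and a digit, and *Rmrp*, *Rpph1*, *Gas5*, *Malat1*, *Neat1*, *Meg3*, *Miat*, *Rian* and *Mirg*. The symbols were proposed with the difference between BaP-exposed and control mice in these arrays already known, so that difference is given below as a description of the family and supports nothing beyond it. The members are 7 small RNA genes with 1 probe each and 21 long RNA genes with 24 probes. No probe was named here as *Gas5*, *Miat*, *Rian* or *Rpph1*, and none as a Snord, Scarna or Rn7s gene or as a microRNA gene other than the host genes.

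All RNA came from the hippocampus of adult male Muta Mouse, a transgenic strain made for mutation assays, 9 weeks old. BaP-exposed mice received benzo[a]pyrene, a polycyclic aromatic hydrocarbon, in olive oil by oral gavage at 70 mg/kg bw on each of 3 days, and control mice received the vehicle. Tissue was taken 24 hr after the last dose. Each group held 5 mice, of which 4 were put on arrays. Each sample was labelled with Cy5 and hybridized beside a universal mouse reference RNA labelled with Cy3, with no dye swap, so a log2 ratio is the sample over that reference and may hold a dye bias that differs between probes.

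The 8 arrays lay on 1 slide in 2 rows, with the first 2 mice of each group in the first row. On the 4 arrays of the second row the labels conflict: the title gives a group and the source name gives the other. Groups were taken from the titles, since the mouse numbers follow these. Median Cy5 signals were 108 to 174 over backgrounds of 67 to 71, and 56.6% to 67.4% of spots were well above background. Outlier spots numbered 1483 for control mouse 1 and 310 to 371 for each other mouse. The 8 markers of excitatory hippocampal neurons were well above background on all 8 arrays, with a mean log2 ratio of 3.68 to 3.87 in control and 3.87 to 4.13 in BaP-exposed mice. Among genes of other cells, 5 of 5 erythroid markers were lower in BaP-exposed mice without overlap of the groups, where 2.54% of all tested probes were. Of these markers, 2 passed the adjusted p and the 1.5-fold limit in limma, where 3 of the 32623 tested probes did. They were *Hbb-bs* (limma adjusted p = 0.0024) and *Alas2* (limma adjusted p = 0.045). The mean log2 ratio of the erythroid markers was 4.62 to 4.84 in control and 3.54 to 3.91 in BaP-exposed mice. All 8 choroid plexus markers were higher, with overlapping means of 2.39 to 4.08 and 1.87 to 5.16. The part of red cells or choroid plexus in the values of the non-coding RNAs was not tested. In bulk tissue, fewer cells of a type and less RNA per cell cannot be told apart.

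Small nuclear RNAs are short, abundant transcripts that work inside ribonucleoproteins. U1 and U2 recognize the 5′ splice site and the branch site of most introns, and U12 recognizes the branch site of a rare class of introns. *Rmrp* encodes the RNA of the ribonuclease MRP, which cuts the precursor of ribosomal RNA. Small nucleolar RNAs guide the modification or the cutting of ribosomal RNA. Most of them are released from introns of longer host RNAs, which include many protein-coding genes and the non-coding Snhg genes, and many microRNAs are cut from host transcripts. *Malat1* and *Neat1* are long RNAs of nuclear speckles and paraspeckles, and *Meg3* and *Mirg* are neighboring non-coding genes of an imprinted locus that is active in the brain.

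The sequences of 4 small RNA probes are shown because these are the members with the largest differences and because they tell which part of each RNA was read. They are the designed probes listed in the study's supplementary table, 60 bases long and written 5′ to 3′. Capitals mark the letters ATTTTTG, which in U2 and U12 form the site where the ring of Sm proteins binds.

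Rnu2-10: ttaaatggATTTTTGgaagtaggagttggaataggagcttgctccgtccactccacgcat
Rnu12: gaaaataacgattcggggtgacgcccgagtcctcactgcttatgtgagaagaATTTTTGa
Rnu1b6: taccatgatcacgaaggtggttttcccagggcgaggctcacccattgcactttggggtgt
Rmrp: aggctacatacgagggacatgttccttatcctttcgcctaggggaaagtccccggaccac

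The marked letters start at base 9 of the *Rnu2-10* probe and at base 53 of the *Rnu12* probe, counted from the 5′ end, and are not in the other probes. As written they occur in 4 of the 259 probes of that table (1.54%), and on either strand in 5 (1.93%), so the match describes the position of the probe and nothing more. The G and C content is 45% in the *Rnu2-10* and *Rnu12* probes and 55% in the *Rnu1b6* and *Rmrp* probes. The study's table holds only probes that it had selected on these same arrays, so membership in it is no independent evidence. U1, U2 and U3 exist in many near-identical copies in the mouse genome, and these probes cannot assign their signal to 1 copy.

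By the titles, the small nuclear RNAs and *Rmrp* were lower on average in BaP-exposed mice, and 0 of these 4 genes passed the adjusted p of 0.05 in limma. *Rnu2-10*, a U2 gene, had log2 ratios of 0.60, 0.38, 0.72 and 0.94 in control mice 1 to 4 and of -0.16, -0.65, -0.62 and -0.50 in BaP-exposed mice 1 to 4. Every BaP-exposed mouse lay below every control mouse, and the highest of them was BaP mouse 1. The log2 fold change was -1.14 (standard error, SE, of 0.14 and limma adjusted p = 0.0759 over all probes), or 45.4% of the control ratio. It ranked number 4 by p among the 32623 tested probes but missed the adjusted threshold of 0.05.

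*Rnu1b6*, a U1 gene, had log2 ratios of 2.13, 2.24, 2.23 and 2.30 in the control mice. The values were 1.49, 1.35, 1.25 and 1.78 in the BaP-exposed mice. The control mice lay within a narrow band (SD 0.072, n = 4), all above the BaP-exposed mice, among which BaP mouse 4 was the highest. This was a log2 fold change of -0.76 (SE 0.11, limma adjusted p = 0.152).

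*Rmrp* showed the opposite spread. Its log2 ratios were 0.11, -0.24, 0.29 and 0.43 in the control mice, and -0.59, -0.64, -0.62 and -0.60 in the BaP-exposed mice. The BaP-exposed mice lay within a narrow band (SD 0.024, n = 4) below all control mice. On the log2 scale the difference was -0.76 (SE 0.13, limma adjusted p = 0.260).

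*Rnu12*, which encodes U12 of the minor spliceosome, had log2 ratios of 0.61, 0.55, 1.08 and 0.88 in the control mice and of 0.08, 0.05, 0.06 and 0.39 in the BaP-exposed mice. BaP mouse 4 stood above the other BaP-exposed mice and below all control mice. The difference between the group means was -0.63 on the log2 scale (SE 0.13, limma adjusted p = 0.351).

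**Figure D1:**
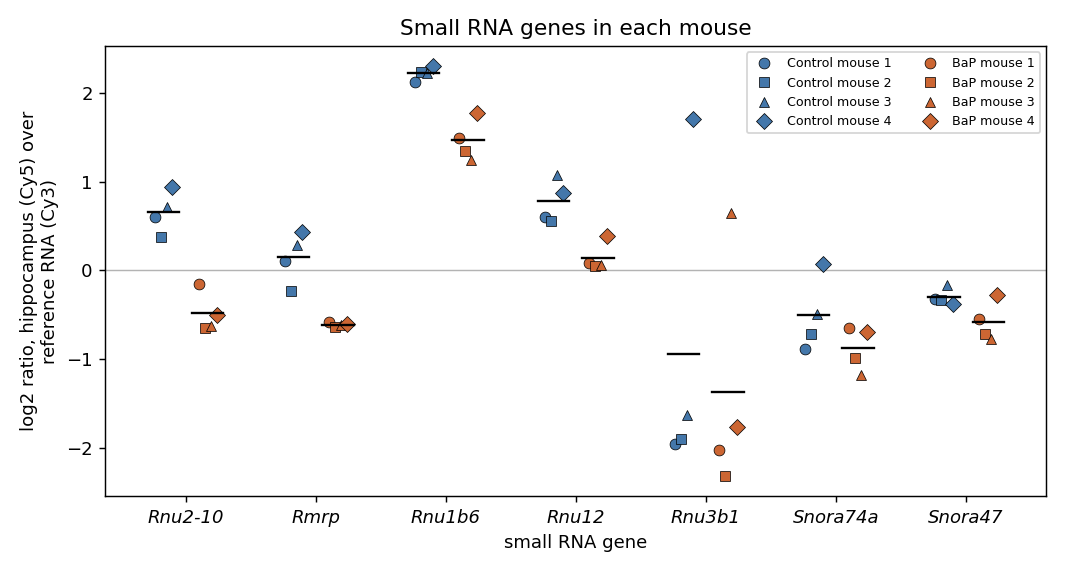
Log2 ratio of hippocampal RNA (Cy5) over reference RNA (Cy3) for the 7 small RNA genes, with a point for each of 4 control and 4 BaP-exposed mice, a symbol for each mouse number and a line at the group mean. The groups did not overlap at *Rnu2-10*, *Rmrp*, *Rnu1b6* and *Rnu12*, and control mouse 4 and BaP mouse 3 stood above the other mice at *Rnu3b1*.

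The small nucleolar RNA genes were lower on average, with overlapping groups. *Snora47*, a box H/ACA guide RNA, had log2 ratios of -0.32, -0.34, -0.16 and -0.37 in control mice and of -0.55, -0.72, -0.77 and -0.28 in BaP-exposed mice. BaP mouse 4 lay among the control mice and the other BaP-exposed mice below them. The mean difference was -0.28 on the log2 scale (SE 0.11, limma adjusted p = 0.542). *Snora74a*, also of the box H/ACA class, had log2 ratios of -0.89, -0.72, -0.49 and 0.07 in control mice and of -0.65, -0.99, -1.18 and -0.70 in BaP-exposed mice. Its groups overlapped, and the log2 fold change of -0.37 (SE 0.20, limma adjusted p = 0.610) was below the SD of 0.42 (n = 4) among the control mice. It was -0.18 without control mouse 4, the highest, and -0.020 within the first slide row against -0.73 within the second.

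*Rnu3b1* encodes a copy of U3, the box C/D RNA needed to cut the precursor of ribosomal RNA. It had log2 ratios of -1.96, -1.91, -1.63 and 1.70 in the control mice. The BaP-exposed mice had -2.02, -2.32, 0.65 and -1.77. Control mouse 4 and BaP mouse 3, 1 mouse of each group, stood far above the other 6. The Cy5 signal of the probe was 8990 and 8563 on these 2 arrays and 828 to 1530 on the others, while the Cy3 signal of the reference exceeded the array median by 6.05 to 6.30 log2 units on all 8 arrays. The log2 fold change of -0.42 (SE 0.86, limma adjusted p = 0.909) was below the SD of 1.77 (n = 4) of the control mice, and without control mouse 4 it was 0.47.

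Small RNAs such as these lack a poly(A) tail as a rule. The study's methods name a linear amplification kit with in vitro transcription of labelled cRNA and do not state the primer. How far the signals follow the level of these RNAs was not tested. Because a ratio can move through either channel, the channels were examined apart, before normalization. Relative to the array median, the Cy5 signal of *Rnu2-10* was lower in BaP-exposed mice by a mean log2 difference of -0.82, and the Cy3 reference signal differed by -0.00082. For *Rmrp* the differences were -0.53 in Cy5 and -0.064 in Cy3. For *Rnu1b6* they were -0.41 and 0.028, and for *Rnu12* -0.28 and 0.064. The reference differed less than the sample for each of the 4 genes. The unnormalized differences were smaller than those after loess. With median centring in place of loess, where the median of all tested probes was 0.17, the log2 fold change was -0.80 for *Rnu2-10*, -0.45 for *Rmrp*, -0.42 for *Rnu1b6* and -0.33 for *Rnu12*, so that their sizes, though not their direction, depend on the normalization. Without normalization, the Cy5 values of *Rnu2-10* (3.55 to 3.80 in control and 2.51 to 3.32 in BaP-exposed mice) and of *Rnu1b6* (6.77 to 7.14 and 6.28 to 6.74) did not overlap. Those of *Rmrp* (2.20 to 3.02 and 2.02 to 2.25) and *Rnu12* (4.70 to 5.20 and 4.52 to 4.83) did.

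**Figure D2:**
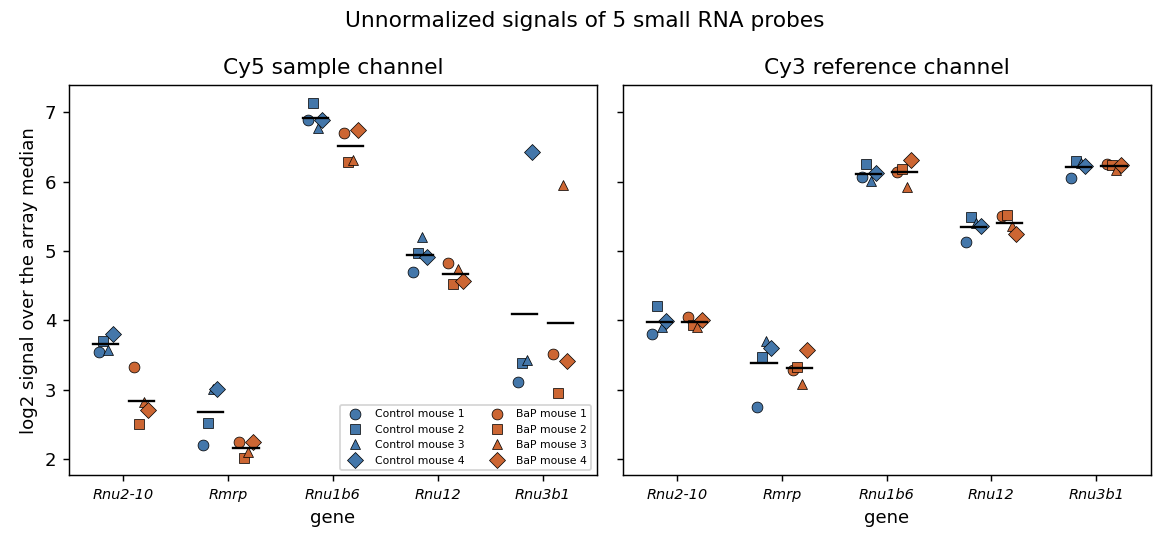
Unnormalized signal of 5 small RNA probes, on the log2 scale relative to the median of the array, in the Cy5 sample channel and the Cy3 reference channel, with a point for each mouse and a line at the group mean. The group means differed in Cy5, by -0.82 for *Rnu2-10*, more than in Cy3, and the 2 high mice of *Rnu3b1* were high in Cy5 alone.

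Over the 29 member probes tested, 0 passed both the adjusted p of 0.05 from limma and the 1.5-fold limit, where 0.0092% of all tested probes did. At an unadjusted p of 0.05, 5 were lower, where 4.23% of all tested probes were, and 0 were higher, where 4.54% were. The groups did not overlap, with BaP lower, at 4 member probes, where this held for 2.54% of all tested probes, and with BaP higher at 0, where it held for 2.52%. All of the probes in these counts were small RNA probes. All 7 small RNA genes had a log2 fold change below 0, as did 51.2% of all tested probes. Their median was -0.63 with a range of -1.14 to -0.28, against a median of -0.0043 over all tested probes. At least 1.5-fold lower were 4 member probes, those of *Rnu2-10*, *Rmrp*, *Rnu1b6* and *Rnu12*, where 0.343% of all tested probes were. The genes were chosen with these differences known, so the counts are a description.

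Of 23 alternatives, 6 change the test or the set of tested probes and leave the fold changes of the small RNAs as they are. Under the other 17, all 7 genes were lower in 15. The exceptions were the fit without control mouse 4, where *Rnu3b1* was higher, and the groups by source name. Within the first slide row, where the labels agree, the log2 fold change was -0.89 for *Rnu2-10*, -0.76 for *Rnu1b6*, -0.55 for *Rmrp* and -0.52 for *Rnu12*. Within the second row it was -1.39, -0.75, -0.97 and -0.75. With the groups taken from the source names, it was 0.25 for *Rnu2-10*, -0.0053 for *Rnu1b6*, 0.21 for *Rmrp* and 0.12 for *Rnu12*. By source name 0 of all tested probes passed the adjusted p and the 1.5-fold limit in limma, against 3 by title. The direction in the second row rests on the titles. *Rnu2-10* passed the adjusted threshold with an intensity trend and robust variance (adjusted p = 0.0422 from limma), with no filter on dim probes (0.0445) and without BaP mouse 1 (0.0441), and the range over the alternatives was 0.0422 to 0.946.

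Of the 21 long RNA genes, 19 had a tested probe, and 13 of these were lower and 6 higher. Their log2 fold changes had a median of -0.067 and a range of -0.41 to 0.18. The median was -0.11 to -0.015 as each mouse was left out. With median centring in place of loess, which moved the median of all tested probes to 0.17, 2 of the 19 were lower, and their median relative to that of all probes was -0.069, against -0.063 in the analysis reported here. In limma, 0 of the 22 tested probes had an unadjusted p of 0.05 or less, where 4.23% of all tested probes were lower and 4.54% higher. None passed the adjusted p, the lowest of which was 0.577. The groups overlapped at every one of the 22 probes, where 2.54% of all tested probes were lower and 2.52% higher without overlap. At these shares a count of 0 among 22 probes says little about the long RNAs.

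**Figure D3:**
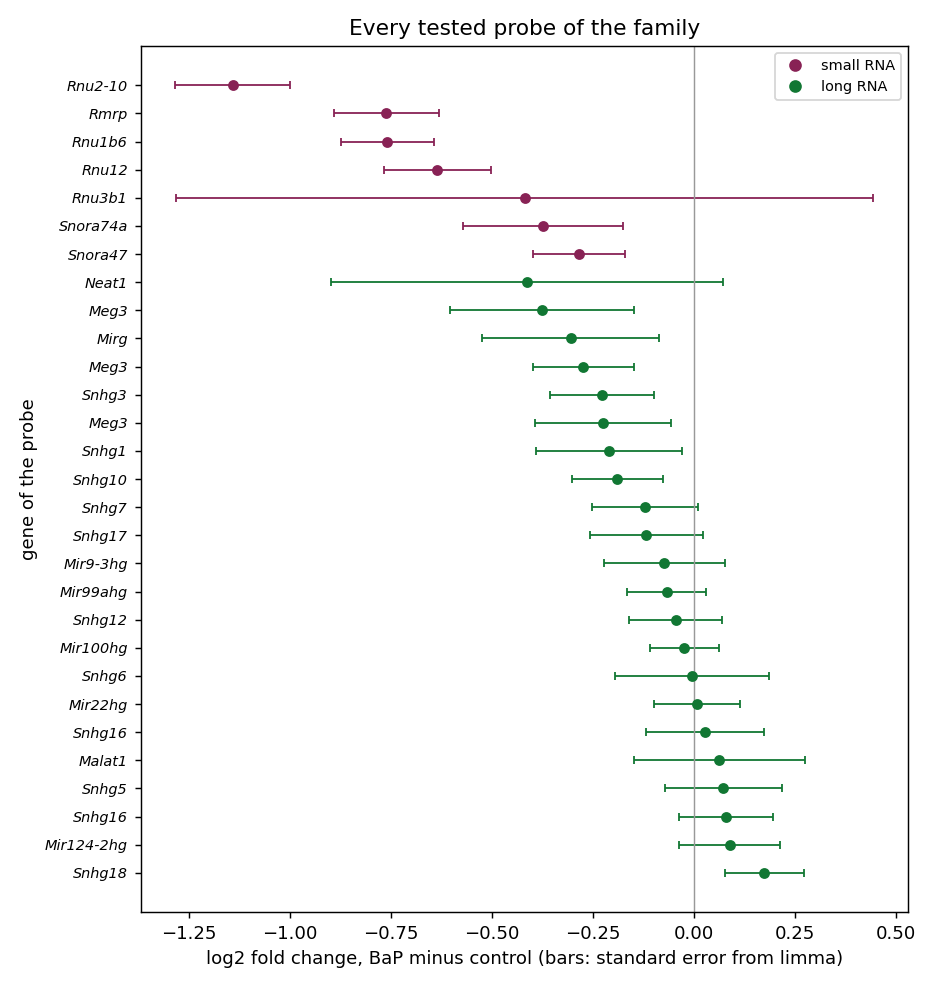
Log2 fold change of BaP-exposed over control mice (x axis) for each of the 29 tested probes, named by gene, with the standard error from limma as a bar and colors for small and long RNAs. The 7 small RNAs lay between -1.14 and -0.28 and the long RNAs between -0.41 and 0.18, and of the small RNAs *Snora74a* and *Snora47* lay within the range of the long RNAs.

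The 10 Snhg genes carry small nucleolar RNAs in their introns or are named for that role. In the RefSeq table used, 15 snoRNA or scaRNA genes lie inside 8 of them, with 4 in *Snhg12*, 3 in *Snhg16* and 2 each in *Snhg3* and *Snhg7*. None of the small RNA genes measured here lies inside a long member, so no small RNA can be set against its own host. Of the 10, 7 were lower and 3 higher, with a median of -0.081, and with median centring in place of loess, where the median of all tested probes was 0.17, 0 of the 10 were below 0. *Snhg3*, which holds the U17 genes *Snora73a* and *Snora73b*, had log2 ratios of -1.74, -1.18, -1.73 and -1.62 in control and of -1.84, -1.88, -1.63 and -1.82 in BaP-exposed mice. Control mouse 2 was the highest, and the groups overlapped. *Snhg3* differed by -0.23 on the log2 scale (SE 0.13, limma adjusted p = 0.630), and by -0.099 without control mouse 2.

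*Snhg18* had the largest positive value of the long RNAs. Its log2 ratios were -2.71, -2.56, -2.34 and -2.47 in control and -2.27, -2.37, -2.26 and -2.48 in BaP-exposed mice, with control mouse 3 and control mouse 4 among the BaP-exposed mice. *Snhg18* differed by 0.18 on the log2 scale (SE 0.10, limma adjusted p = 0.630), and by 0.11 to 0.24 as each mouse was left out. *Snhg1* had -0.21 (SE 0.18), *Snhg10* -0.19 (SE 0.11), *Snhg7* -0.12 (SE 0.13) and *Snhg17* -0.12 (SE 0.14). As each mouse was left out, *Snhg1* ranged from -0.39 to -0.094, *Snhg10* from -0.28 to -0.13 and *Snhg7* from -0.26 to -0.025. The log2 fold changes of *Snhg12* and *Snhg6* were -0.045 and -0.0031. *Snhg5* had 0.074, and the probes of *Snhg16* had 0.080 and 0.028. Of these probes, all but those of *Snhg18*, *Snhg1* and *Snhg10* were within 1 standard error of 0.

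Host genes of microRNAs were read by probes for the long transcript, which do not measure the mature microRNA. The mature products below, from RefSeq on the GRCm38.p6 assembly, are shown because their length sets them apart from the 60 bases of a probe. Capitals mark the seed, bases 2 to 8, with which a microRNA pairs to its targets. No seed is shared among them.

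miR-100-5p: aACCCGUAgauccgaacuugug
miR-125b-5p: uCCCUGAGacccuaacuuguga
miR-22-3p: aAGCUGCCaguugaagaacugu
miR-9-5p: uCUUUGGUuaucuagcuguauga

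miR-100-5p (chr9:41531437-41531458, plus strand) and miR-125b-5p (chr9:41581940-41581961, plus strand) lie inside *Mir100hg*. miR-22-3p (chr11:75463772-75463793, plus strand) lies inside *Mir22hg*. miR-9-5p (chr7:79505279-79505301, plus strand), abundant in neural progenitors and brain, lies inside *Mir9-3hg*. *Mir100hg* had a log2 fold change of -0.023 (SE 0.086), with ratios of -1.07 to -0.82 in control and -1.06 to -0.91 in BaP-exposed mice. *Mir22hg* had 0.0086 (SE 0.11) and *Mir99ahg* -0.067 (SE 0.099). *Mir9-3hg* had -0.073 (SE 0.15) and *Mir124-2hg* 0.089 (SE 0.13), but the reference was not well above background at the probes of these 2 genes on any array, so their ratios rest on the sample channel. All 5 lay within 1 standard error of 0. *Mir17hg* and *Mir1a-1hg* were well above background in Cy5 on 2 and 1 of the 8 arrays and were not tested.

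At the imprinted locus, all 4 probes were lower on average with overlapping groups, but with median centring 2 of the 4 were, at 0.068 for the brightest *Meg3* probe and -0.012 for *Mirg* where the median of all tested probes was 0.17. The brightest *Meg3* probe had log2 ratios of 4.13, 4.66, 4.12 and 4.34 in control and of 3.99, 3.95, 4.02 and 4.18 in BaP-exposed mice. Only BaP mouse 4 lay within the control range. The difference was -0.27 on the log2 scale (SE 0.12, limma adjusted p = 0.577), and the other *Meg3* probes gave -0.38 (SE 0.23) and -0.22 (SE 0.17). *Mirg*, a transcript with 10 microRNA genes inside it in the RefSeq table, had log2 ratios of 2.94, 3.66, 2.72 and 2.48 in control and of 2.72, 2.37, 2.75 and 2.74 in BaP-exposed mice. The log2 fold change was -0.30 (SE 0.22, limma adjusted p = 0.692), and it was -0.76 within the first slide row and 0.15 within the second. Control mouse 2 was the highest of the 8 mice at every probe of the locus, at 7.17 and 4.56 for the other *Meg3* probes. Without this mouse the log2 fold change was -0.16 for the brightest *Meg3* probe and -0.068 for *Mirg*. On its array the Cy3 reference signal of the brightest *Meg3* probe was 3407, against 1036 to 1576 on the other arrays.

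The RNAs of nuclear bodies varied among mice more than between groups. *Neat1* had log2 ratios of -3.12, -1.60, -4.05 and -3.49 in control and of -4.01, -3.11, -2.70 and -4.10 in BaP-exposed mice. The SD was 1.05 (n = 4) in control and 0.68 (n = 4) in BaP-exposed mice, above the log2 fold change of -0.41 (SE 0.49, limma adjusted p = 0.823). Without control mouse 2, the highest, it was 0.074. *Malat1* had log2 ratios of -2.62, -2.68, -3.43 and -3.14 in control and of -3.0, -3.10, -2.38 and -3.14 in BaP-exposed mice. Its log2 fold change was 0.064 (SE 0.21), and -0.11 without BaP mouse 3.

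The small and long classes were compared mouse by mouse, with each gene set to its control mean and the median taken over the genes of a class. For the 7 small RNA genes this median was -0.097, -0.23, 0.058 and 0.28 in control mice 1 to 4 and -0.73, -0.79, -0.72 and -0.45 in BaP-exposed mice 1 to 4. For the 19 long RNA genes it was -0.051, 0.28, -0.19 and 0.027 in control and 0.019, -0.096, -0.061 and -0.13 in BaP-exposed mice. The difference, small minus long, was -0.046, -0.51, 0.25 and 0.26 in control and -0.75, -0.69, -0.66 and -0.32 in BaP-exposed mice. The groups overlapped in the difference, since control mouse 2, with the lowest small and the highest long median of the control mice, lay below BaP mouse 4. Between the classes, the median log2 fold changes differed by -0.57, and by -0.43 within the first slide row and -0.77 within the second. It ranged from -0.72 to -0.50 as each mouse was left out. No test was made of this difference, because the genes were chosen with it known.

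**Figure D4:**
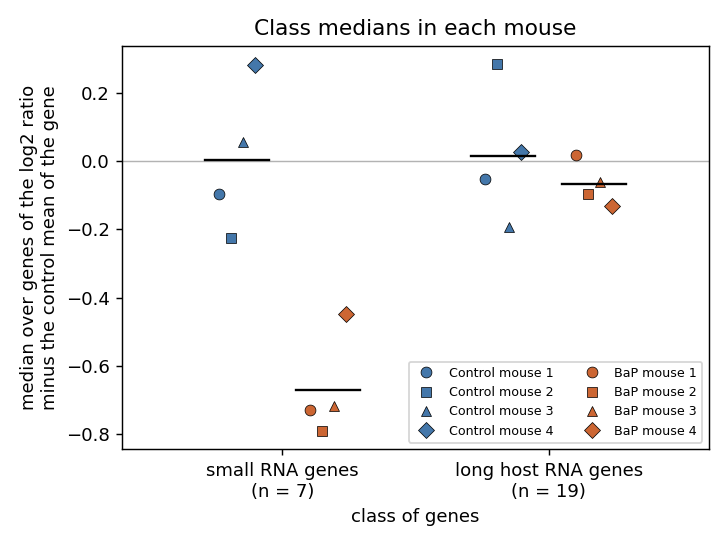
Median over the genes of each class of the log2 ratio minus the control mean of the gene (y axis), for 7 small RNA genes and 19 long RNA genes, with a point for each mouse and a line at the group mean. The BaP-exposed mice lay between -0.79 and -0.45 for the small RNAs and between -0.13 and 0.019 for the long RNAs, where the control mice spanned -0.19 to 0.28.

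The proteins that bind, build or process these RNAs were read from 9 lists with 114 genes, all tested. Of these, 63 were lower and 51 higher in BaP-exposed mice, where 51.2% of all tested probes were lower, and 0 passed the adjusted p of 0.05 in limma. At an unadjusted p of 0.05, 3 were lower and 6 higher, where 4.23% of all tested probes were lower and 4.54% higher. The groups did not overlap at 8 genes, of which *Sfpq* and *Snrpg* were lower, and *Snrnp200*, *Snrpb*, *Ints9*, *Gemin6*, *Hnrnpk* and *Srp54a* higher, where this held for 2.54% and 2.52% of all tested probes. In the list of Sm, LSm and snRNP proteins, 11 were lower and 16 higher, and the median was 0.026 on the log2 scale. *Snrnp200*, a helicase of the U5 particle, had 0.22 (SE 0.073, limma adjusted p = 0.498), and *Lsm8*, which binds U6, had 0.28 (SE 0.10, limma adjusted p = 0.516). *Sf3b1*, a protein of the U2 particle, had 0.28 (SE 0.11) and *Snrpb*, an Sm protein, had 0.19 (SE 0.083).

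Of the 21 genes of snRNP assembly and snRNA transcription, 12 were lower and 9 higher, with a median of -0.046. *Ints9*, a subunit of the Integrator complex that cuts snRNA precursors, had 0.19 (SE 0.081, limma adjusted p = 0.549). The 10 proteins of RNase P and RNase MRP, the partners of *Rmrp*, had a median of -0.024 with 6 lower and 4 higher, and 0 at an unadjusted p of 0.05 in limma. The 14 box C/D and H/ACA proteins had a median of -0.038, with 11 lower and 3 higher and 0 at that p.

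Among the 9 proteins of paraspeckles and nuclear speckles, 6 were lower and 3 higher. *Sfpq*, a core paraspeckle protein, had -0.24 (SE 0.076, limma adjusted p = 0.497), and the splicing factor *Srsf2* had -0.19 (SE 0.079). Of 8 genes of nonsense-mediated decay, which degrades many Snhg transcripts, 7 were lower and 1 higher, and the helicase *Upf1* had -0.25 (SE 0.10, limma adjusted p = 0.545). In the signal recognition particle, *Srp54a* had 0.35 (SE 0.10, limma adjusted p = 0.496), and 5 of the 6 genes were higher. The 7 genes of the 7SK and P-TEFb complexes had a median of 0.036, and the 12 genes of microRNA processing had -0.033, with 0 at an unadjusted p of 0.05 in limma in either list.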

How the data were processed

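Hippocampal RNA of 4 control and 4 BaP-exposed mice was measured on 2-color Agilent arrays. The authors deposited the intensity of each spot in both channels, read with Agilent Feature Extraction, with background, outlier and detection marks (other units), a log10 ratio that was not used here, and normalized log2 ratios. The deposited log2 ratios matched those computed here in scale and direction (Pearson r of 0.998 to 0.999 across probes, slopes 0.992 to 1.02, medians of -0.0457 to -0.0343), and the methods name LOWESS for them.

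From spot medians, the background was corrected with normexp (offset 50). Control spots were dropped, outlier spots set to missing, ratios normalized by loess and replicate spots averaged. Probes whose Cy5 signal was marked well above background on 4 or more of the 8 arrays, with 2 or more values in each group, were tested (32623 of 55681) with limma 3.58.1 in R 4.3.3, with Benjamini-Hochberg adjustment and calls at an adjusted p of 0.05 and 1.5-fold. The brightest tested probe stood for a gene in class summaries. Python 3.11.15 with pandas 2.3.3 summarized the results. Names came from a RefSeq table of GRCm38.p6, which named 1137 of 1216 probes with a non-coding accession and left 79 without a name. All tested Rnu, *Rmrp* and long genes are named in the text, snoRNA genes at an unadjusted p of 0.05 or without overlap, and partner proteins at that p. *Snora74a* was named after its values were seen.

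The members, gene lists and tests were chosen with earlier results of these data known. Simulated data for this comparison held 32623 probes with 200 changed. There limma recovered 87 of 100 changes of 1 on the log2 scale and 100 of 100 changes of 2, with 3 false calls. In the measured data 3 probes were called. The adjusted threshold asks for a smaller p when fewer probes change. The recovered shares therefore do not tell how often changes of these sizes would be called here. Alternatives covered background, normalization, filters, test, blocks, labels and each mouse left out. Each array held RNA of a separate mouse. The number of arrays limits the precision.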

Additional observations from a re-analysis of the deposited data

Results flagged for a closer look

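In 66 groups of 4 mice, 4 held a mouse far from the other mice of its group, where chance gives 3.3 at about 1 group in 20. For *Rnu3b1*, a U3 gene, this was control mouse 4, with a log2 ratio of 1.70 where the rest of the group had -1.96 to -1.63, and the distance to the nearest mouse was 0.912 of the group's range. For *Rnu12*, the U12 gene, it was BaP mouse 4, with 0.39 where the rest had 0.046 to 0.079, a distance of 0.906 of the range. *Mirg* had 2.37 in BaP mouse 2 and 2.72 to 2.75 in the rest of the group, a distance of 0.926. *Snhg6* had -1.35 in BaP mouse 3 and -1.0 to -0.98 in the rest, a distance of 0.949.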

How the results depend on the processing

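Of 597 values over 26 genes, 532 kept their direction and side of the adjusted threshold, 3 passed it, all of *Rnu2-10*, and 62 changed sign, none of them past the threshold in limma.

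By source name, the log2 fold change was -0.46 for *Malat1*, -0.0095 for *Mir124-2hg*, -0.047 for *Mir22hg*, 0.021 for *Mir9-3hg*, 0.21 for *Rmrp*, 0.12 for *Rnu12*, 0.25 for *Rnu2-10*, 0.18 for *Rnu3b1*, 0.094 for *Snhg10*, 0.14 for *Snhg12*, -0.034 for *Snhg16*, -0.015 for *Snhg5* and 0.35 for *Snora74a*. The small RNA median was then 0.18, the difference small minus long 0.21, and 2 member probes were lower at the unadjusted p and 1 without overlap. With median centring it was 0.068 for *Meg3*, 0.11 for *Mir100hg*, 0.048 for *Mir9-3hg*, 0.031 for *Mir99ahg*, 0.055 for *Snhg1*, 0.078 for *Snhg10*, 0.22 for *Snhg12*, 0.086 for *Snhg17*, 0.051 for *Snhg3*, 0.27 for *Snhg6* and 0.14 for *Snhg7*, with class medians of -0.33 for small and 0.097 for long RNAs and 1 probe higher at the unadjusted p. With Cy5 alone it was -0.059 for *Mir22hg*, 0.070 for *Mir9-3hg*, -0.016 for *Snhg16* and 0.019 for *Snhg6*, and 1 probe was higher at the unadjusted p. With no background subtraction it was 0.012 for *Mir9-3hg*, -0.0097 for *Snhg5* and 0.0037 for *Snhg6*, with plain subtraction 0.034 for *Mir99ahg*, and with the deposited ratios -0.016 for *Mir22hg* and -0.0089 for *Snhg5*. Only the mice whose labels agree gave -0.40 for *Malat1*, -0.038 for *Mir22hg*, 0.097 for *Snhg12* and -0.0064 for *Snhg16*, and slide row 2 alone, added after the data were seen, gave 0.15 for *Mirg*, 0.37 for *Neat1*, 0.014 for *Snhg6* and 0.099 for *Snhg7*. With 2 mice a group, non-overlap is more frequent: 11 member probes were lower and 1 higher in the first row, where 17.5% and 20.8% of all tested probes were, and 6 lower and 3 higher in the second, where 20.9% and 16.2% were.

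Leaving out each mouse in turn changed a sign for *Malat1* (-0.11 to 0.18), *Mir100hg* (-0.057 to 0.028), *Mir22hg* (-0.061 to 0.073), *Mir9-3hg* (-0.19 to 0.039), *Neat1* (-0.74 to 0.074), *Rnu3b1* (-1.09 to 0.47), *Snhg12* (-0.093 to 0.040), *Snhg16* (-0.084 to 0.16), *Snhg17* (-0.19 to 0.027), *Snhg5* (-0.038 to 0.17) and *Snhg6* (-0.18 to 0.12). Member probes at the unadjusted p ranged from 4 to 8 lower, with 8 without control mouse 3, and from 0 to 1 higher. Those without overlap were 0 to 1 higher, with 1 without control mouse 2. Those past the adjusted p and fold were 0 to 1, with 1 without BaP mouse 1, 1 with an intensity trend and robust variance and 1 with no filter. The cause of these changes was not tested.

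Deviations from the group mean of same-numbered mice correlated at -0.354, 0.0313, -0.0071 and -0.0066 over 32026 probes. Those of different-numbered mice correlated at -0.314 to 0.340. The deviations were taken within groups of 4 mice and depend on each other, so they cannot tell whether the replicate numbers pair the mice. With the replicate block, *Rnu2-10* was at -1.14 (adjusted p = 0.238 from limma) and 0 member probes passed. Spot means were planned as an alternative but not run, as the files hold spot medians. A small RNA median without microRNA genes is the same value, as no such gene was named. Over all probes, 0 to 6 passed the threshold, against 3 in the analysis reported. The dim probes of *Snhg5* and *Mir100hg* had standard errors of 0.14 and 0.086, below those of the brighter probes of *Rnu3b1* (0.86) and *Neat1* (0.49).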
